A study of Homo sapiens with 11 samples.

Results

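A cassette exon is an internal exon that is either kept in the mature RNA or skipped. The exons described here are cassette exons whose length is not a multiple of 3, so that keeping or skipping them shifts the reading frame wherever they lie between the start and the stop codon. They were taken from 3 deposited lists of exons whose inclusion differed between control cells and a knockdown, and exon length was read from the event names in those lists. Of 363 listed rows, 122 met the rule, 35 of 107 in the BCL11A list (32.7%), 34 of 110 in the MBNL1 list (30.9%) and 53 of 146 in the double-knockdown list (36.3%). Because 26 exons stood in more than 1 list, the 122 rows came from 92 distinct exons in 92 host genes. The other 241 rows, with 175 distinct exons, had lengths divisible by 3 and are called frame-preserving.

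The study sequenced ribosome-depleted total RNA from MDA-MB-231, a human breast cancer line that grew out of a pleural effusion of a metastatic tumour. All cells were transfected with siRNA and harvested 48 h later. The control siNS received 100 nM of a siRNA without a target (2 libraries), siBCL11A received 100 nM of a siRNA pool against BCL11A (3 libraries), siMBNL1 received 100 nM of a pool against MBNL1 (3 libraries), and siB/siM received both pools at 50 nM each (3 libraries). Each list compares siNS with the knockdown it is named for, the double-knockdown list with siB/siM, and all 3 lists use the same siNS values. The 11 libraries had an estimated effective depth of 20.04 to 34.9 mega-reads. This estimate was not read from the labels. It was inferred from RPKM values as the size that makes the read numbers of short RNAs whole.

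MBNL1 is an RNA-binding protein that promotes or blocks the inclusion of exons depending on where it binds, and BCL11A is a zinc finger protein that represses transcription. A change of frame usually brings a stop codon into reading soon after the junction. When such a stop lies well upstream of the last exon junction, the RNA is a substrate of nonsense-mediated decay (NMD), a pathway that couples the end of translation to RNA degradation. An exon can act in either direction. A conserved coding exon may be needed to keep the frame, and a so-called poison exon brings in the stop when it is kept. Exons before the start codon or in noncoding RNAs change no frame in those transcripts, whatever their length.

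The sequences below show what the change of frame does in the exons that the results turn on. Each runs 5′ to 3′ in the sense of the gene, from the last 15 bases of the preceding exon to the first stop codon in frame, which is in capitals. The first 4 are forms without the cassette exon, which is an annotated coding exon, and each meets a stop codon more than 50 bases before the last junction. The cassette exons lie, in GRCh38, at chr5:95653117-95653214 on the plus strand (RFESD, 98 bases), chr1:36307918-36307963 on the plus strand (SH3D21, 46 bases), chr18:23399566-23399647 on the minus strand (TMEM241, 82 bases) and chr1:204537430-204537497 on the plus strand (MDM4, 68 bases). MDM4 was added to the set after its values were seen.
RFESD without the exon: acacttcctctccaacatgaatctTGA
SH3D21 without the exon: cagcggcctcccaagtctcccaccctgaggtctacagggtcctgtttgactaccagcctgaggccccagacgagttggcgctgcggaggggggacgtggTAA
TMEM241 without the exon: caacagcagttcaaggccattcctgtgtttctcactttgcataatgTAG
MDM4 without the exon: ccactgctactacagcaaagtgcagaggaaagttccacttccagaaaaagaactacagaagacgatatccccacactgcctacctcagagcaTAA
In these 4 forms the stop followed the new junction after 9 (RFESD), 84 (SH3D21), 31 (TMEM241) and 77 bases (MDM4).

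The next 3 are forms that keep an exon annotated only in transcripts marked as NMD targets, and keeping it brings in the early stop. These exons lie at chr7:30020213-30020304 on the minus strand (FKBP14, 92 bases), chr16:646472-646608 on the plus strand (FAM195A, 137 bases) and chr17:50464526-50464599 on the plus strand (ACSF2, 74 bases).
FKBP14 with the exon: gaaaagaaggaaaagtctttTAG
FAM195A with the exon: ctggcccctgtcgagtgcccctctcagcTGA
ACSF2 with the exon: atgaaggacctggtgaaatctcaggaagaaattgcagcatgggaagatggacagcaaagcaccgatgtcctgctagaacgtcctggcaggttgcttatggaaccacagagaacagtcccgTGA
The stop stood 5 bases into the exon in FKBP14 and 13 bases into it in FAM195A. In ACSF2 the exon holds no stop in frame, and the stop stood 105 bases after the junction, in the next exon.

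The last 3 hold an annotated stop codon themselves, so that the exon sets the end of the protein rather than an early stop. They lie at chr2:172501772-172501901 on the plus strand (ITGA6, 130 bases), chr17:82245976-82246039 on the minus strand (CSNK1D, 64 bases) and chr16:57759125-57759153 on the minus strand (KIFC3, 29 bases).
ITGA6 with the exon: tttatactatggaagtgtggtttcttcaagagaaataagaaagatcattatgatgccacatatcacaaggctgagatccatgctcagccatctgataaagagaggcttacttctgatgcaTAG
CSNK1D with the exon: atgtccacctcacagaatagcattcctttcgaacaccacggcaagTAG
KIFC3 with the exon: agctgcagccctcggccTGA
ITGA6, the laminin-binding integrin alpha 6 subunit, has a pair of known cytoplasmic tails, A and B, and the exon shown here encodes the A tail.

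The annotated place of each exon was found by matching its length and the lengths of its flanking introns to GENCODE transcripts, which placed 80 of the 92 exons (87.0%). Only 34 exons (37.0%) lay within an annotated reading frame. A further 20 (21.7%) lay before the start codon, 6 held the start codon and 5 held the stop codon. Another 6 were annotated in NMD transcripts alone and 9 in transcripts without a reading frame, and 12 found no match. The name frame-shifting therefore describes the length of these exons, not a measured effect on a protein. In GENCODE as a whole, 59.7% of 188665 internal exons of protein-coding transcripts have a length not divisible by 3. That share is not limited to cassette exons, so the 30.9% to 36.3% in the lists is set beside that share only as a description.

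**Figure D1:**
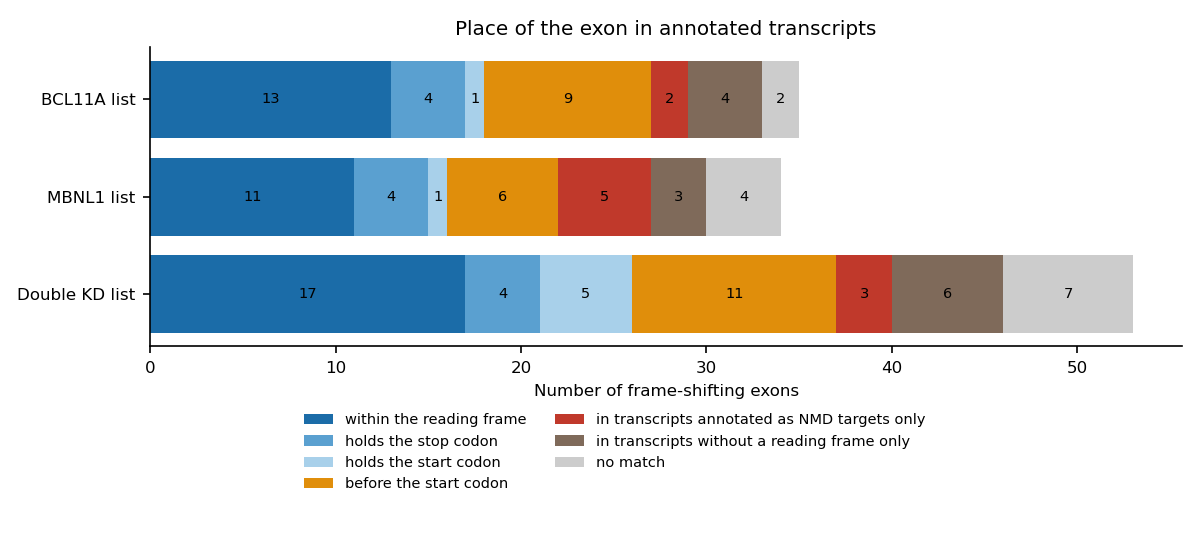
Number of frame-shifting exons (x axis) in each list by their place in annotated transcripts (colours). Exons within the reading frame number 13, 11 and 17 in the BCL11A, MBNL1 and double-knockdown (Double KD) lists, and those before the start codon 9, 6 and 11.

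Inclusion levels are the authors' values, 1 percentage per group, with no spread between libraries and no known read depth. How the libraries of a group were combined is not stated. The exons were listed because the inclusion levels differed, so the differences are described and not tested. Inclusion was higher in the knockdown for 19 exons and lower for 16 in the BCL11A list, higher for 17 and lower for 17 in the MBNL1 list, and higher for 26 and lower for 27 in the double-knockdown list. Frame-preserving exons of the same lists were higher in 30 and lower in 42, higher in 24 and lower in 52, and higher in 22 and lower in 71. The higher share was thus 54.3%, 50% and 49.1% among frame-shifting exons and 41.7%, 31.6% and 23.7% among frame-preserving exons. No test of this difference was made, since rows within a list are not replicates.

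The absolute difference had a median of 20.3 percentage points in the BCL11A list, 18.9 in the MBNL1 list and 17.1 in the double-knockdown list, beside 18.9, 18.5 and 19.7 points for frame-preserving exons. At least 30 points separated the groups in 7, 8 and 3 frame-shifting exons. The smallest listed difference was 10.02 points, for SRRM1 in the double-knockdown list, and an exon missing from a list may have differed by less or not have been measured. Exon lengths ran from 22 to 869 bases with medians of 116, 111.5 and 107 bases in the 3 lists. In the BCL11A list 9 exons left a remainder of 1 base and 26 of 2 bases, against 16 and 18 in the MBNL1 list and 33 and 20 in the double-knockdown list.

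**Figure D2:**
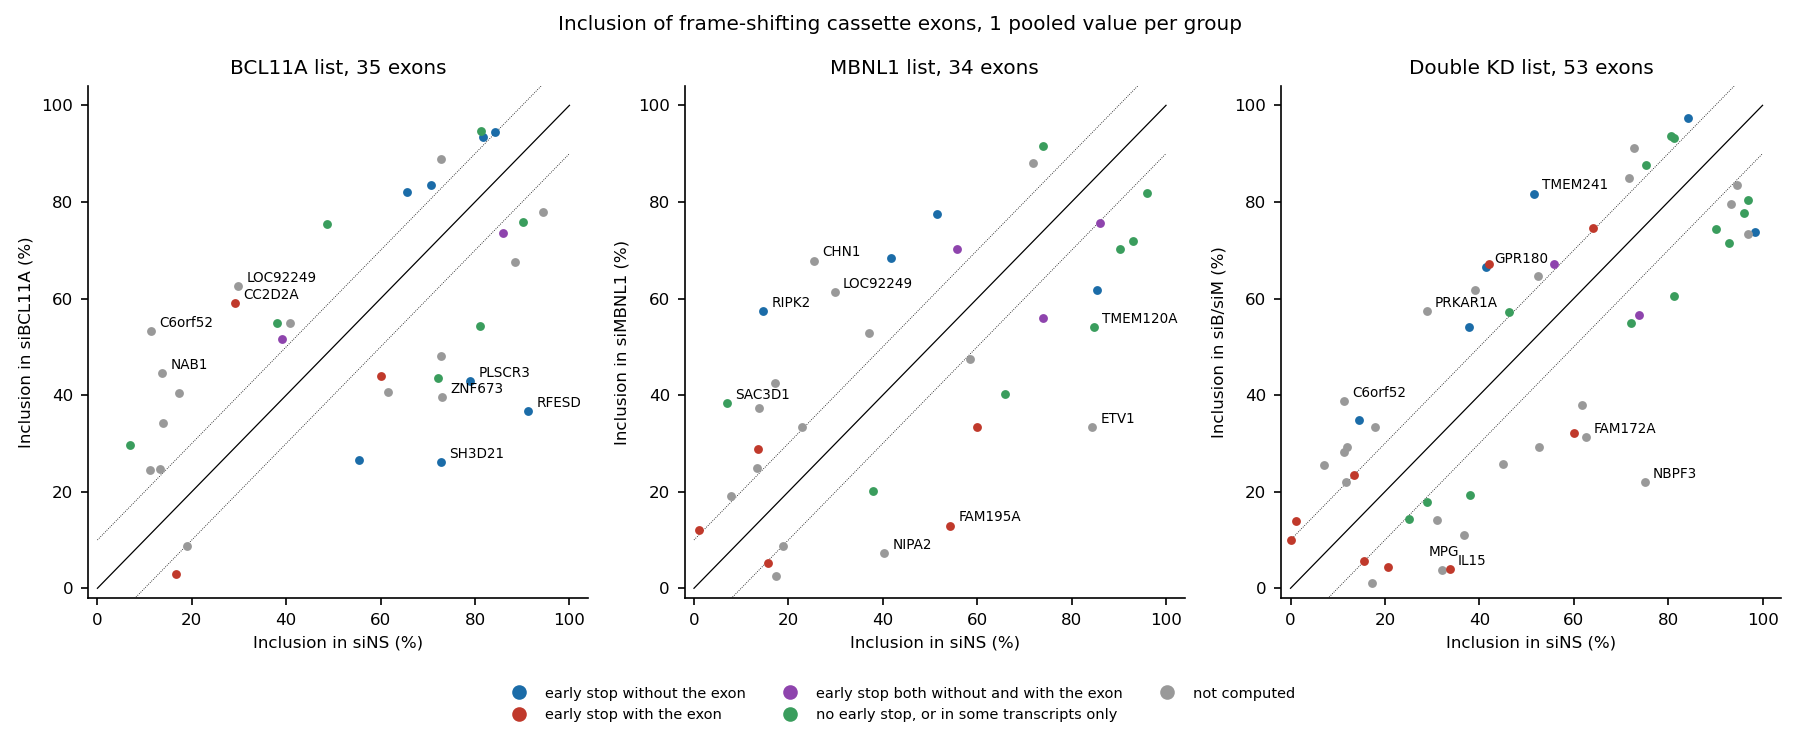
Inclusion in siNS (x axis, %) and in the knockdown (y axis, %) for the frame-shifting exons of each list, 1 value per group. The solid line marks equal inclusion, the dotted lines a difference of 10 points, and colours the computed stop codon class. Exons stand on both sides of the line in each list, 19 above and 16 below in the BCL11A list, 17 and 17 in the MBNL1 list, and 26 and 27 in the double-knockdown (Double KD) list.

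In the BCL11A list the 3 exons that were lower by most lie within an annotated reading frame. The exon of RFESD, a protein with a Rieske iron-sulphur domain, was at 91.2% in siNS and 36.7% in siBCL11A. SH3D21, an SH3 domain protein, stood at 72.8% and 26.1%, and PLSCR3, a mitochondrial phospholipid scramblase, at 78.9% and 43.0%. MDM4, an inhibitor of p53 whose known short form lacks this 68-base exon, stood at 55.3% and 26.5%. In all 4 genes, removing the exon from the annotated coding transcripts that hold it gave an early stop in every transcript computed. For RFESD, PLSCR3 and MDM4, annotation also holds transcripts without the exon that are marked as protein-coding. ZNF673 stood at 72.9% and 39.6%, and FAM126A (hyccin, a scaffold for a lipid kinase at the plasma membrane) at 72.1% and 43.6%.

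Among the 6 exons of the BCL11A list that were higher by most, 4 lay before a start codon or in transcripts without a reading frame. They were C6orf52 (11.4% in siNS, 53.3% in siBCL11A), LOC92249 (29.8% and 62.5%), NAB1, a corepressor of EGR transcription factors (13.7% and 44.6%), and ZNF687, a zinc finger protein (17.2% and 40.5%). The exon of CC2D2A, a protein of the ciliary transition zone, stood at 29.1% and 59.0%. It is annotated in NMD transcripts alone, and every form computed with it has an early stop. MTERFD2, a mitochondrial ribosome factor, stood at 48.6% and 75.4% for an exon within its reading frame.

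In the MBNL1 list the exon of ETV1, an ETS transcription factor, was lower by most, at 84.3% in siNS and 33.3% in siMBNL1. Its 197 bases lie at chr7:14028893-14029089 on the minus strand in hg19. The ETV1 exon is annotated in NMD transcripts alone, but neither form could be computed for an early stop. The poison exon of FAM195A stood at 54.3% and 12.98%, and the exon of NIPA2, a magnesium transporter, at 40.4% and 7.21%. TMEM120A, a membrane protein, stood at 84.6% and 54.1%, and CHTF8, a subunit of a loader of the replication clamp, at 65.9% and 40.2%. The exons that were higher by most belong to RIPK2, a kinase downstream of NOD receptors (14.6% and 57.3%), and CHN1, a GTPase-activating protein for Rac (25.5% and 67.8%). Skipping the RIPK2 exon gives an early stop, and so does skipping the exon of MOK, a protein kinase (41.7% and 68.4%).

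In the double-knockdown list NBPF3 was lower by most, at 75.0% in siNS and 22.03% in siB/siM; its family has many near-identical copies, so reads may have been shared among them. The next 3 exons hold a start codon. They belong to FAM172A (62.5% and 31.2%), the cytokine IL15 (33.7% and 3.96%) and MPG, a DNA glycosylase of base excision repair (32.0% and 3.70%). IFT88, a subunit of the transport machinery of cilia, stood at 36.8% and 10.98% for an exon before its start codon. TMEM241, PRKAR1A and C6orf52 were higher by most and are described below. They were followed by GPR180 (41.3% and 66.5%), whose skipped form has an early stop, TMUB2 (42.1% and 67.2%) and LOC100506054 (39.0% and 61.7%).

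Exons in more than 1 list are given with their values side by side, since the comparisons share siNS. Of the 26, 4 stood in all 3 lists. The exon of CSNK1D, the casein kinase 1 delta of the circadian clock, had an inclusion of 90.2% in siNS, 75.9% in siBCL11A, 70.3% in siMBNL1 and 74.5% in siB/siM, and was thus lower in each knockdown. PRKAR1A, a regulatory subunit of protein kinase A, had 13.9% in siNS, 34.1% in siBCL11A and 37.4% in siMBNL1 at an exon before its start codon. In the double-knockdown list the same PRKAR1A exon is listed with other flanking exons, at 28.9% in siNS and 57.4% in siB/siM.

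ITGA6 was the exception. Its A-tail exon was kept in 38.02% of transcripts in siNS, 55.0% in siBCL11A, 20.2% in siMBNL1 and 19.4% in siB/siM. Inclusion was thus higher than in siNS after siBCL11A and lower after siMBNL1, and siB/siM lay beside siMBNL1. Among the 26 shared exons no other differed from siNS in opposite directions between lists.

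Of the 10 exons in the MBNL1 and double-knockdown lists alone, several started near the ends of the scale. The exon of GPR116, an adhesion G protein-coupled receptor, was at 17.3% in siNS, 2.51% in siMBNL1 and 1.12% in siB/siM. The poison exon of ACSF2, a mitochondrial acyl-CoA synthetase family member, was at 1.078%, 12.2% and 13.9%. The poison exon of FKBP14, a prolyl isomerase of the endoplasmic reticulum, was at 15.6%, 5.27% and 5.57%. KIFC3, a minus-end kinesin, was at 93.0%, 71.9% and 71.4%, and GPR126, another adhesion receptor, at 96.0%, 81.9% and 77.6%. TMEM241 was at 51.6%, 77.6% and 81.7%, and H2AFY, the histone variant macroH2A1, at 55.8%, 70.2% and 67.1%. The exons of H2AFY and OGDH, an enzyme of the citric acid cycle, belong to pairs of which transcripts normally use either member, so plain skipping may not describe them.

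Of the 12 exons in the BCL11A list and exactly 1 other list, SAC3D1, a centrosomal protein, was at 6.98% in siNS, 29.7% in siBCL11A and 38.3% in siMBNL1. LOC92249 was at 29.8%, 62.5% and 61.3% in the same groups, and ZNF687 at 17.2%, 40.5% and 42.5%. C6orf52 was at 11.4% in siNS, 53.3% in siBCL11A and 38.7% in siB/siM. PPIL3, a cyclophilin found in spliceosomes, was at 81.1%, 54.4% and 60.5%. ZNF271, a zinc finger gene annotated as a transcribed pseudogene, was at 72.8%, 88.8% and 91.2%.

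**Figure D3:**
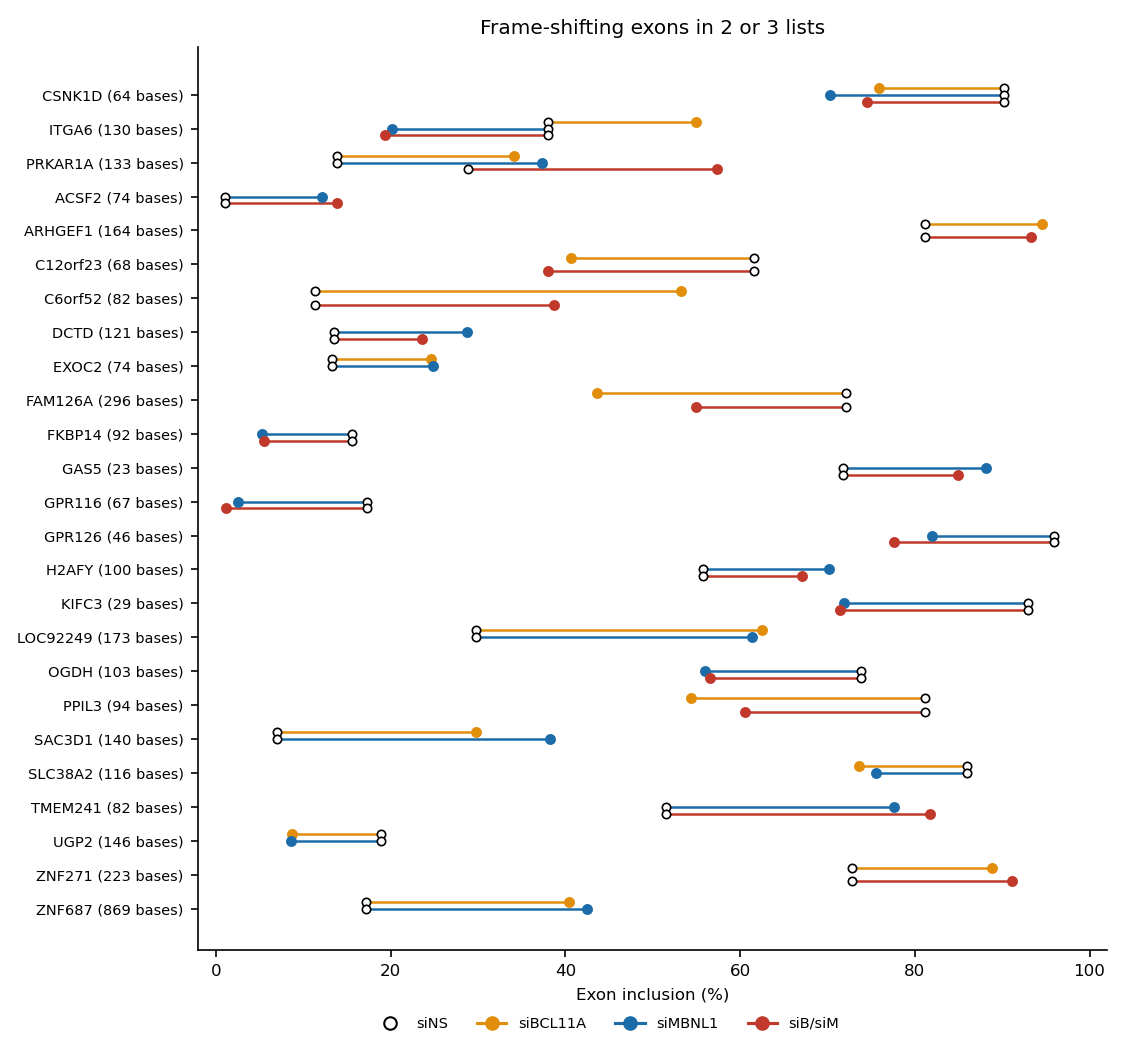
Inclusion (x axis, %) of 25 of the 26 frame-shifting exons found in more than 1 list (y axis, with exon length), with an open circle for siNS and a filled circle for each knockdown that lists the exon. ITGA6 lies on both sides of siNS, at 55.0% in siBCL11A and at 20.2% and 19.4% in siMBNL1 and siB/siM.

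Sequence was read for the 80 matched exons to look for the tetramers TGCT and TGCC, and with C in first place CGCT and CGCC, on the sense strand, the letters of the motif that MBNL proteins are known to bind. At least 1 occurred in 65 of 80 exons (81.25%), and in 72.1% of all annotated exons of the same lengths. In the MBNL1 list it occurred in 13 of 15 exons that were higher and 12 of 15 that were lower (86.7% and 80%). Annotated exons of those lengths had it in 70.9% and 68.5%. In the BCL11A list it occurred in 14 of 18 and 12 of 15 (77.8% and 80%), beside 74.9% and 71.0%. In the double-knockdown list it occurred in 21 of 24 and 19 of 22 (87.5% and 86.4%), beside 77.2% and 67.2%. These shares were not tested. Flanking introns were not searched, and a match is a match of letters only.

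Host gene levels were taken from the authors' RPKM values (reads per kilobase of gene and mega-read), which exist only where the authors' own comparison with siNS called the gene. The authors' deposited table lists, of 23227 genes, 23.1% after the BCL11A pool, 20.2% after the MBNL1 pool and 28.8% after both pools. Hosts were listed in their own knockdown for 15 of 35 in the BCL11A list (42.9%), 16 of 34 in the MBNL1 list (47.1%) and 26 of 53 in the double-knockdown list (49.1%). An exon needs reads to be listed, so these hosts are not a random draw from all genes. Listed genes passed a test on these same libraries. Limma calls and p-values against siNS, and a lack of overlap with siNS, given below, are therefore no further support. PPIA and KIFC3 did not overlap siNS in siB/siM either, though limma did not call them. Log2 changes below are on the log2(RPKM + 1) scale with their SE, and adjusted p-values come from limma. The labels do not say that the replicates are separate cultures, so a p-value here reflects how much libraries varied, which may be technical. In bulk RNA, fewer cells expressing a gene and less RNA per cell cannot be told apart.

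Among BCL11A-list hosts with values, 5 rose and 8 fell in siBCL11A and 2 did not pass, so that 86.7% were called beside 89.2% of all 5360 listed genes. Among MBNL1-list hosts 6 rose and 10 fell in siMBNL1, all 16 being called, beside 94.3% of 4690 genes. Among double-knockdown hosts 10 rose, 11 fell and 5 did not pass in siB/siM, 80.8% beside 86.9% of 6700 genes. The called shares of hosts were thus close to those of the table. Median log2 changes were -0.29, -0.30 and 0.17 for the hosts and -0.22, -0.25 and 0.24 for all genes with values. Hosts of frame-preserving exons with values had medians of 0.22, 0.23 and 0.21 and were higher in 20, 16 and 28 and lower in 13, 12 and 19. The median absolute change of all genes with values was 0.46, 0.44 and 0.41. Since genes that did not pass against siNS are left out, these medians mainly tell which direction had more genes, not a typical size. Without siNS replicate 1, and likewise without siNS replicate 2, 10 of the 16 MBNL1-list hosts were called.

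The 15 listed rows in which the early stop falls in 1 form only, and whose host had values, came from 12 hosts. In 11 rows (8 hosts) the host gene level and the share of the form that lacks the early stop differed from siNS in the same direction, in 3 rows (3 hosts) in opposite directions, and in 1 the host was not called. Higher calls made up 42.3%, 45.2% and 51.3% of all genes in the 3 comparisons and lower calls 46.9%, 49.1% and 35.5%. The rows were classed by annotation and share hosts and siNS, so no test was made on their number.

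Exons whose inclusion gives a computed early stop, called poison exons here, gave 6 of those 11 rows. ACSF2 RNA stood at 15.5 and 20.3 RPKM in siNS, at 9.86, 9.75 and 9.40 RPKM in siMBNL1, and at 12.5, 11.5 and 10.9 RPKM in siB/siM. No knockdown library reached the lower siNS library. ACSF2 fell with a log2 change of -0.81 ± 0.10 in siMBNL1 (adjusted p = 8.76e-05) and -0.57 ± 0.10 in siB/siM (adjusted p = 0.000931), while inclusion of its exon was higher. ACSF2 also fell in siBCL11A, whose list does not hold the exon, with 10.2, 12.01 and 10.7 RPKM (log2 change -0.65 ± 0.10, adjusted p = 0.000345).

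SRRM1, a coactivator of splicing rich in serine and arginine, carries an exon of 130 bases at chr1:24973570-24973699 in hg19 that was at 0.0126% in siNS and 10.0% in siB/siM. This exon is annotated only in transcripts without a reading frame. The early stop was computed by inserting it into coding transcripts that skip it. SRRM1 RNA had 16.1 and 12.2 RPKM in the siNS libraries and 7.90, 8.82 and 7.79 RPKM after siB/siM. The groups did not overlap, although the 2 siNS libraries lay further apart than the siB/siM libraries (log2 change -0.71 ± 0.13, adjusted p = 0.00109). In siBCL11A and siMBNL1, whose lists do not hold this exon, the log2 changes of SRRM1 were -0.50 ± 0.13 (adjusted p = 0.0113) and -0.39 ± 0.13 (adjusted p = 0.04996).

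FKBP14 went the other way, with lower inclusion and a higher host level. Its RNA had 5.17 and 4.94 RPKM in the siNS libraries, 7.85, 8.14 and 6.46 RPKM after siMBNL1 and 7.55, 7.18 and 6.70 RPKM after siB/siM. Every library of both knockdowns was above both siNS libraries, with log2 changes of 0.48 ± 0.082 (adjusted p = 0.00101) and 0.43 ± 0.082 (adjusted p = 0.00186). DCLRE1C, the Artemis nuclease of DNA end joining, holds a 65-base exon that was at 16.7% in siNS and 2.91% in siBCL11A. That exon, too, is annotated only in transcripts without a reading frame. Inserting it gave an early stop in all 10 coding transcripts computed. DCLRE1C RNA had 4.13 and 4.50 RPKM in the siNS libraries and, without overlap, 5.61, 5.24 and 5.74 RPKM after siBCL11A (log2 change 0.30 ± 0.066, adjusted p = 0.00716). DCLRE1C was also higher in siB/siM, where the exon is not listed (log2 change 0.40 ± 0.066, adjusted p = 0.00108).

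Exons whose removal gives a computed early stop gave the other 5 rows. TMEM241, with higher inclusion in both lists that hold it, had 4.12 and 4.39 RPKM in the siNS libraries, 5.37, 5.34 and 6.17 RPKM after siMBNL1, and 6.32, 5.37 and 5.49 RPKM after siB/siM. All 6 knockdown libraries were above siNS, with log2 changes of 0.33 ± 0.077 (adjusted p = 0.00761) and 0.35 ± 0.077 (adjusted p = 0.00409). TMEM241 also rose in siBCL11A, where the exon is not listed, to 5.54, 6.04 and 5.70 RPKM (log2 change 0.36 ± 0.077, adjusted p = 0.00355). SH3D21, whose exon had lower inclusion, had 3.32 and 2.72 RPKM in the siNS libraries and 1.86, 2.11 and 2.02 RPKM after siBCL11A (log2 change -0.42 ± 0.082, adjusted p = 0.00598).

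NVL, an ATPase of ribosome assembly, and MRPS10, a mitochondrial ribosomal protein, completed the set. The NVL exon stood at 65.5% in siNS and 82.1% in siBCL11A, and its RNA rose from 13.9 and 12.7 RPKM to 18.02, 17.6 and 19.1 RPKM (log2 change 0.43 ± 0.092, adjusted p = 0.00387). NVL also rose in siMBNL1 and siB/siM, where the exon is not listed, with log2 changes of 0.50 ± 0.092 (adjusted p = 0.00159) and 0.51 ± 0.092 (adjusted p = 0.00112). For NVL, annotation also holds transcripts without the exon that are marked as protein-coding. For MRPS10 the exon stood at 70.7% and 83.6%, and the RNA rose from 116 and 113 RPKM to 143, 143 and 143 RPKM (log2 change 0.32 ± 0.059, adjusted p = 0.00444). In both genes all siBCL11A libraries lay above siNS.

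MDM4 and SLC37A2 went against that pattern. MDM4 RNA had 1.94 and 2.21 RPKM in the siNS libraries and 3.39, 3.31 and 3.15 RPKM after siBCL11A, while inclusion of the exon was at 55.3% and 26.5%. After siMBNL1 it had 3.03, 2.91 and 2.61 RPKM, after siB/siM 3.55, 3.29 and 3.31 RPKM, and no knockdown library overlapped siNS. The exon is listed for siBCL11A alone. Log2 changes were 0.48 ± 0.066 (adjusted p = 0.000148), 0.32 ± 0.066 (adjusted p = 0.00334) and 0.51 ± 0.066 (adjusted p = 8.61e-05) in the order siBCL11A, siMBNL1 and siB/siM. SLC37A2, a sugar phosphate transporter, had 65.1 and 68.9 RPKM in the siNS libraries and 50.2, 55.6 and 56.8 RPKM after siBCL11A, where its exon stood at 93.5% beside 81.8% in siNS (log2 change -0.30 ± 0.072, adjusted p = 0.0075). SLC37A2 also fell in siMBNL1 and siB/siM, where the exon is not listed, with log2 changes of -0.86 ± 0.072 (adjusted p = 4.7e-06) and -0.62 ± 0.072 (adjusted p = 3.68e-05). PPIA, cyclophilin A, had the row that was not called, with 272 and 295 RPKM in siNS and 329, 331 and 309 RPKM in siB/siM (log2 change 0.19 ± 0.069, adjusted p = 0.0959). The PPIA exon is annotated before the start codon, and its early stop was computed by inserting it into coding transcripts that skip it.

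**Figure D4:**
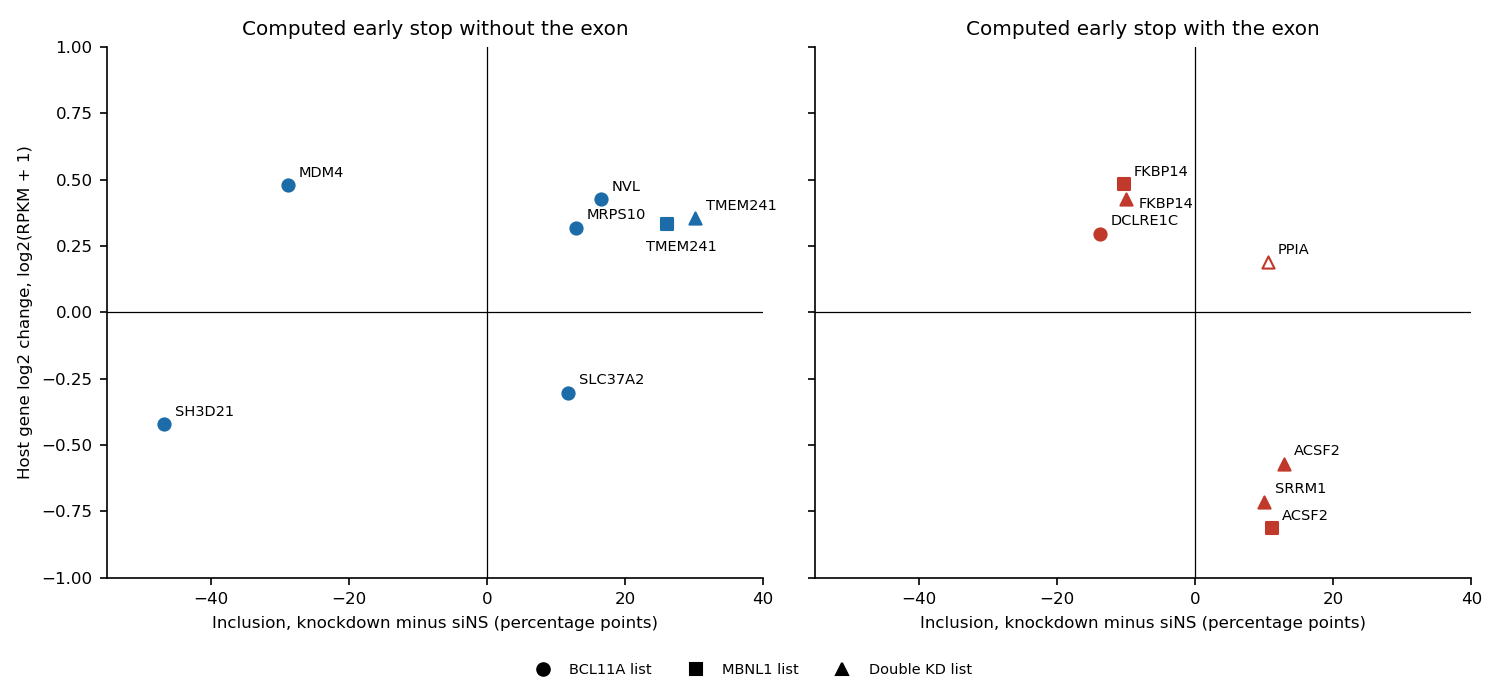
Change of inclusion (x axis, percentage points, knockdown minus siNS) against the log2 change of host RNA (y axis, log2(RPKM + 1)) for 14 of the 15 rows with an early stop without the exon (left) or with it (right); symbols give the list and an open symbol a host that did not pass limma. On the left 5 of 7 rows lie where both signs are equal, and on the right 6 of 7 lie where they differ. The row not drawn belongs on the right and has equal signs.

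The other rows with an early stop in 1 form only had no host values. Hosts with no early stop, or with it in some transcripts only, moved in the direction of inclusion in 8 rows, against it in 3 and were not called in 2. Hosts of exons for which neither form could be computed moved with inclusion in 15 rows, against it in 8 and were not called in 3. In the 4 genes where either form gives an early stop (SLC38A2, DGUOK, OGDH and H2AFY), 2 rows moved with inclusion and 1 was not called.

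Host changes of at least 1 on the log2 scale were found for GPR116 and ETV1 alone, among all hosts in all 3 comparisons with siNS. In the table as a whole 6.27%, 4.84% and 5.1% of genes reached that size. The siNS libraries held 85.3 and 91.7 RPKM of GPR116, the siBCL11A libraries 20.05, 18.6 and 18.5 RPKM, the siMBNL1 libraries 57.6, 56.7 and 50.4 RPKM, and the siB/siM libraries 24.98, 23.8 and 23.95 RPKM. The 4 groups did not overlap. The log2 change from siNS was -2.16 ± 0.070 (adjusted p = 4.82e-09) in siBCL11A, -0.68 ± 0.070 (adjusted p = 2.16e-05) in siMBNL1 and -1.83 ± 0.070 (adjusted p = 1.72e-08) in siB/siM. Its exon, chr6:46822452-46822518 in hg19, was listed for siMBNL1 and siB/siM and matched no annotated exon.

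For ETV1 the siNS libraries held 11.4 and 11.1 RPKM, those of siBCL11A 5.97, 5.88 and 5.54 RPKM, those of siMBNL1 7.01, 6.79 and 6.19 RPKM, and those of siB/siM 4.80, 4.65 and 4.47 RPKM. All 9 knockdown libraries were below siNS. Log2 changes were -0.85 ± 0.062 (adjusted p = 1.11e-06), -0.68 ± 0.062 (adjusted p = 8.97e-06) and -1.12 ± 0.062 (adjusted p = 1.53e-07). Its exon was listed for siMBNL1 alone, where inclusion was lower (84.3% in siNS and 33.3% in siMBNL1), as was the host level. That exon is annotated in NMD transcripts alone. Since neither form could be computed, it is not among the rows classed by an early stop.

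ITGA6 RNA reached 168 and 172 RPKM in the control libraries. The siBCL11A libraries held 122, 115 and 112 RPKM and the siB/siM libraries 114, 116 and 115 RPKM, and siMBNL1 has no value. It fell in both groups, whose A-tail exon differed from siNS in opposite directions, with log2 changes of -0.54 ± 0.058 (adjusted p = 6.57e-05) and -0.56 ± 0.058 (adjusted p = 5.13e-05). The log2 difference between siB/siM and siBCL11A was -0.02 ± 0.052 (adjusted p = 1), which does not show that they were equal.

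CSNK1D RNA was lower in each knockdown, from 15.1 and 14.9 RPKM in siNS to 9.64 to 12.1 RPKM in siBCL11A, 10.4 to 10.9 RPKM in siMBNL1 and 10.03 to 12.3 RPKM in siB/siM. The log2 changes were -0.42, -0.45 and -0.39, each ± 0.091 (adjusted p = 0.00443, 0.00302 and 0.00639). ZNF271 RNA had 3.24 and 3.49 RPKM in the siNS libraries and between 5.46 and 7.56 RPKM in the 9 knockdown libraries. Its log2 changes, 0.84, 0.67 and 0.94 (each ± 0.064; adjusted p = 1.64e-06, 1.35e-05 and 6.7e-07), were the largest rises of a host in siBCL11A and siB/siM. GAS5, a noncoding snoRNA host RNA that NMD is known to degrade, had 58.0 and 54.9 RPKM in the siNS libraries, 69.2 to 76.7 RPKM after siMBNL1 and 72.4 to 91.8 RPKM after siB/siM, with log2 changes of 0.39 and 0.49 (each ± 0.093; adjusted p = 0.00967 and 0.00166). Its 23-base exon was kept more often in both knockdowns, at 88.2% and 85.0% beside 71.8% in siNS. GAS5 also rose in siBCL11A, where the exon is not listed, to 81.3, 75.1 and 74.5 RPKM (log2 change 0.44 ± 0.093, adjusted p = 0.0035).

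**Figure D5:**
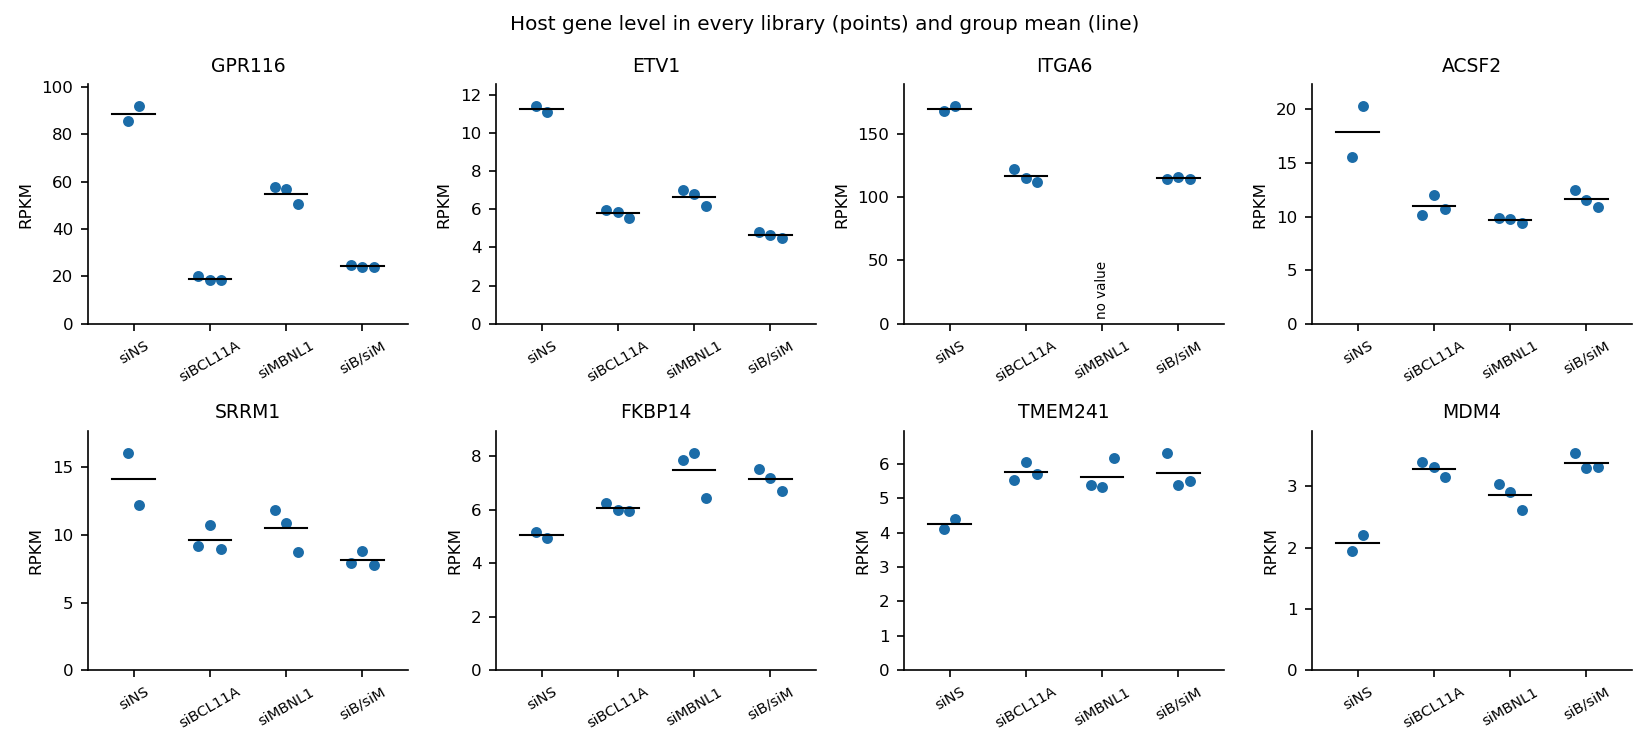
RPKM (y axes, from 0) of 8 host genes in every library (points) with group means (lines) in siNS (n = 2) and in siBCL11A, siMBNL1 and siB/siM (n = 3 each). GPR116 is lowest in siBCL11A and siB/siM, and TMEM241 and MDM4 lie above siNS in all 9 knockdown libraries.

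Host levels were also compared between knockdowns, which is not the comparison for which the authors listed the genes. The difference itself does not use siNS, but a gene enters only if listed against siNS for both knockdowns. The estimate of spread also uses the siNS libraries. ITGA6, without a value in siMBNL1, is therefore missing from comparisons with that group. Between siBCL11A and siMBNL1, 4 of 20 hosts with values were called (20%), beside 18.9% of 3376 genes. SLC37A2 (log2 difference 0.56 ± 0.064, adjusted p = 0.000293) and SBDSP1, a pseudogene of the ribosome maturation factor SBDS (0.30 ± 0.051, adjusted p = 0.0058), were higher in siBCL11A. CTSC, the lysosomal protease cathepsin C (-0.31 ± 0.047, adjusted p = 0.00238), and GPR116 (-1.48 ± 0.062, adjusted p = 9.3e-08) were lower. Of all 3376 genes, 7.02% were called higher and 11.9% lower in siBCL11A. Since SBDSP1 and SBDS are near-identical, their reads may have been split.

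Between siB/siM and siMBNL1, 5 of 27 hosts were called (18.5%), beside 11.6% of 3927 genes (5.76% higher and 5.81% lower in siB/siM). CTNND1, the adherens junction protein p120 catenin, was at 13.9, 14.5 and 14.7 RPKM in siB/siM and 11.01, 11.05 and 10.3 RPKM in siMBNL1, without overlap (log2 difference 0.38 ± 0.052, adjusted p = 0.00423). Both lay below siNS, at 17.9 and 18.1 RPKM. Its exon before the start codon was listed for siBCL11A alone, at 72.7% in siNS and 48.1%. SBDSP1 (0.34 ± 0.051, adjusted p = 0.00389) and ZNF271 (0.28 ± 0.057, adjusted p = 0.027) were also higher in siB/siM, and ETV1 (-0.44 ± 0.055, adjusted p = 0.000944) and GPR116 (-1.14 ± 0.062, adjusted p = 2.79e-06) were lower.

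Between siB/siM and siBCL11A, GPR116 was the only called host of 30 (3.33%), beside 2.04% of 4511 genes (1.77% higher and 0.266% lower in siB/siM). It was 0.33 ± 0.062 higher on the log2 scale in siB/siM (adjusted p = 0.0474). With the replicate number as a block, limma called 0 hosts in this comparison (8 at an unadjusted p under 0.05, as without the block). The count was also 0 with any 1 of the 6 libraries of these groups left out (7 to 9 at an unadjusted p under 0.05).

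Genes of the NMD pathway, from a list of 26 factors, had values for 14 in siBCL11A, 13 in siMBNL1 and 20 in siB/siM. Of these, 14, 13 and 16 rose in limma and 0 fell, while UPF3A, MAGOH, NCBP1 and XRN1 did not pass in siB/siM. Over all genes with values, 42.3%, 45.2% and 51.3% were called higher and 46.9%, 49.1% and 35.5% lower, in the order siBCL11A, siMBNL1 and siB/siM. At an unadjusted p under 0.05, 0, 0 and 1 (XRN1) were lower. With quantile normalization 14, 11 and 15 were called higher and 0 lower. ETF1, the release factor that reads stop codons, had 42.7 and 43.5 RPKM in the siNS libraries and between 85.7 and 98.2 RPKM in the knockdowns, with log2 changes of 1.15, 1.01 and 1.11 (each ± 0.053). DCP2, the decapping enzyme, had log2 changes of 0.89, 1.33 and 1.23 (each ± 0.076). UPF3B, which bridges the exon junction complex and the core factor UPF2, had 5.30 and 5.33 RPKM in the siNS libraries and 7.68 to 11.3 RPKM in the knockdowns.

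Among the 23 listed symbols of transcripts known to be degraded by NMD, DDIT3 and CHOP name the same gene. HNRNPL, TRA2B, SRSF2, SRSF3, SRSF6 and SRSF7 stand both in this list and in that of splicing proteins below. Of those with values, 11 of 13 rose in siBCL11A, 8 of 10 in siMBNL1 and 16 of 19 in siB/siM, and 2 fell in each. Higher calls made up 42.3%, 45.2% and 51.3% of all genes with values. With quantile normalization 11, 6 and 12 of the NMD-degraded transcripts were called higher and 2 lower in each. In siB/siM the noncoding snoRNA hosts SNHG12 and SNHG1 had the largest rises (log2 changes 1.19 ± 0.11 and 1.01 ± 0.078). The transcription factor ATF4 went from 54.1 and 56.3 RPKM in siNS to 105, 103 and 101 RPKM (log2 change 0.89 ± 0.054, adjusted p = 3.22e-07). CARS, a tRNA ligase, and BAG1, a cochaperone, were lower (-0.36 ± 0.065 and -0.63 ± 0.11). These genes moved in the same libraries as the hosts of poison exons, and their part in the host changes was not tested.

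Splicing and RNA-binding proteins with values rose in 24 of 29 in siBCL11A, 21 of 23 in siMBNL1 and 37 of 48 in siB/siM, and fell in 3, 2 and 3, beside 42.3%, 45.2% and 51.3% higher and 46.9%, 49.1% and 35.5% lower over all genes with values. With quantile normalization 22, 15 and 21 were called higher and 2, 2 and 4 lower. The MBNL1 gene itself had 10.2 and 9.77 RPKM in the siNS libraries. It had 27.7, 27.5 and 27.6 RPKM after siBCL11A, 3.17, 3.52 and 2.55 RPKM after siMBNL1, and 3.53, 3.65 and 3.56 RPKM after siB/siM. It was thus higher after siBCL11A and lower after both treatments with the MBNL1 pool. BCL11A has no value in the table used here. Of 36 known target genes of MBNL-regulated splicing, 4 rose and 10 fell of 16 with values in siBCL11A, 4 and 7 of 12 in siMBNL1, and 5 and 12 of 21 in siB/siM, to be read against the same shares of all genes. With quantile normalization 4 were called higher in each comparison and 9, 6 and 13 lower.

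Markers of the line were present, with summed RPKM of 2032 to 2097 in siNS for KRT8, KRT18, KRT19, VIM and CD44. AXL, also on that list, had no value. Line markers with values had log2 changes of -1.20 to 0.31 in siBCL11A, -0.64 to 0.37 in siMBNL1 and -0.90 to 0.38 in siB/siM. Of 4 luminal markers chosen as lacking in such a line, EPCAM had values, 8.26 to 9.60 RPKM in siNS. ESR1, PGR and CDH1 had none, which does not show that they were absent. Of 6 immune markers, CD14, CSF1R and CD68 had values, and the others, among them PTPRC and CD3E, had none. Their sum was 60.6 to 62.4 RPKM in siNS, 27.8 to 31.5 in siBCL11A, 33.3 to 38.8 in siMBNL1 and 26.7 to 28.3 in siB/siM. PDGFRB, COL1A1 and COL1A2 summed to 6.81 to 7.46 RPKM in siNS and 2.22 to 2.80 RPKM in the knockdowns, and PECAM1, VWF and CDH5 had no value. These markers fell in the same comparisons as the hosts that fell, and their part in those changes was not tested.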

How the data were processed

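RNA of 11 libraries was sequenced. The authors deposited, per the file headers, 3 exon lists that give each cassette exon its inclusion in siNS and in the knockdown (as a fraction from 0 to 1), printed here as a percentage. Each list holds 1 value per group, so its depth and spread are unknown. The authors also deposited RPKM values per library together with a p-value and an adjusted p-value for each comparison with siNS, and only genes with an adjusted p-value under 0.05 are in that table. The build is hg19, per the submitters' processing notes; aligner, read counter and splicing caller were not given in the sources used here. A ratio column and other lists of the series were not used.

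Exon length was taken as the difference of the inner positions in the event name. Exons were matched to GENCODE 29 on GRCh38 by the lengths of the exon and its flanking introns; a match by 1 intron was accepted. Each form was translated in the annotated frame, and a stop more than 50 bases before the last junction was called early. No hg19 genome was used, and no position was converted.

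Host levels were fitted with limma 3.58.1 in R 4.3.3 on log2(RPKM + 1), as 4 group means over 8085 genes, after a filter that all genes met (group mean of 1 RPKM or more in any group). Benjamini-Hochberg adjustment counted 23227 genes, the number behind the authors' adjustment, and calls were made at an adjusted p under 0.05. Where a gene has no values for a knockdown, the fit used its other groups. The script was tested on simulated data. Named were the exons in more than 1 list, the 6 largest rises and falls of each list, hosts with a called log2 change of at least 1, and hosts in the gene lists; other hosts are named for the stop codon classes. Single genes that stay in the counts are not reported here by name. Members and lists were chosen with earlier results of these data known.

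The groups share replicate numbers that the labels do not explain. Deviations from the group mean correlated across genes for equal numbers of siBCL11A and siB/siM (Pearson's r of 0.32, 0.19 and 0.16), a hint of pairing from the data alone; the reported fit has no replicate block, and the fit with it is an alternative; every other combination of groups had a negative r for at least 1 number. Alternatives were other pseudocounts, filters and scaling, the replicate block, a fit of the 2 groups alone, adjustment over genes with values only, each library left out, and for exons another length rule and stricter differences.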

Additional observations from a re-analysis of the deposited data

Results flagged for a closer look

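The change of ITGA6 A-tail exon inclusion from siNS was 34.8 percentage points higher in siBCL11A than in siMBNL1. It was marked because the changes have opposite signs (38.02% in siNS, 55.0% and 20.2% in the knockdowns). With 1 value per group the difference was not tested.

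The other results were marked because the change of a host gene from siNS differed between siBCL11A and siMBNL1 in a test of the difference itself with limma. GPR116 was lower in siBCL11A by a log2 difference of -1.48 (adjusted p = 9.3e-08), and CTSC by -0.31 (adjusted p = 0.00238). SLC37A2 was higher in siBCL11A by 0.56 (adjusted p = 0.000293) and SBDSP1 by 0.30 (adjusted p = 0.0058). In each of these 4 genes the 3 siBCL11A libraries did not overlap the 3 siMBNL1 libraries. The genes were picked by a test on these same libraries, so this is no separate support.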

How the results depend on the processing

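With each library left out in turn, called hosts numbered 9 to 12 in the BCL11A list (13 with all libraries), 10 to 15 in the MBNL1 list (16) and 16 to 21 in the double-knockdown list (21). Between siBCL11A and siMBNL1 they numbered 4 to 5 (4), between siB/siM and siMBNL1 4 to 5 (5), and between siB/siM and siBCL11A 0 in every case (1), with 7 to 9 hosts at an unadjusted p under 0.05. The last count was also 0 with a pseudocount of 0.1 or 0.5 RPKM, with the replicate block and with quantile normalization, and 5 when adjusted over genes with values only. That adjustment gave 7 between siBCL11A and siMBNL1. The cause was not tested beyond the settings themselves. The replicate block gave 12, 15 and 20 hosts against siNS and changed no other count by over 1.5 times; quantile normalization, fitted within the 2 groups compared, moved the median log2 change of all genes by 0.05, 0.05 and -0.06, and gave 9 higher and 12 lower hosts in the double-knockdown list.

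Counting both end positions in the exon length would give 81, 92 and 126 exons, with 36 higher and 45 lower in the BCL11A list, 31 and 61 in the MBNL1 list and 88 lower in the double-knockdown list; deposited coordinates fit the shorter length. At a difference of at least 0.2, 8, 8 and 7 exons were higher and 10, 8 and 12 lower; at 0.3, 3, 4 and 1 and 4, 4 and 2. Of 1053 recomputed single values none reversed, 71 no longer passed and 18 newly passed; 13 and 14 of the 71 came from leaving out siNS replicate 1 or 2. Inclusion values given once per group, 2 siNS libraries and a table limited to listed genes set the limits here.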
